A study of Mus musculus with 19 samples.

Results

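Inflammasome and interleukin-1 genes were followed through mouse heart tissue of both Mcm8 genotypes with and without LCWE, a bacterial extract used to model Kawasaki disease. The genes were chosen by name as the parts of 1 signalling chain. They comprise the sensors Nlrp3 and Aim2, the adaptor Pycard, the caspases Casp1 and Casp4, the pore protein gene Gsdmd, the cytokines Il1b and Il18, the antagonist Il1rn and the receptor Il1r1. These are 10 of the 25239 gene symbols in the count table, and 9 of the 10 had enough counts to be tested. Il1rn was too low.

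The libraries were made from total RNA of heart tissue, with LCWE standing for Lactobacillus casei cell wall extract, which brings on inflammation of the coronary arteries in mice. Mcm8 codes for a DNA helicase, and the study asked what its loss does to the heart in this model. The groups were Mcm8 knockout with LCWE (n = 5 libraries), wild type with LCWE (n = 6), Mcm8 knockout with the saline control PBS (n = 3) and wild type with PBS (n = 5). The sources used here give no strain, sex, age, dose or time after treatment, and nothing in the labels states that libraries came from separate animals, so every p-value measures the spread between these libraries.

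An inflammasome is a protein complex that a cell assembles when it senses microbial matter or damage. A sensor such as NLRP3, or AIM2 for DNA in the cytosol, gathers the adaptor ASC, the product of Pycard, and ASC in turn gathers caspase-1. Caspase-1 cuts the precursors of interleukin-1β and interleukin-18 into their active forms and cuts gasdermin D, whose fragment forms pores in the cell membrane, while mouse caspase-11, the product of Casp4, senses bacterial lipopolysaccharide and also cuts gasdermin D. Interleukin-1β then acts on nearby cells through the receptor encoded by Il1r1, which the product of Il1rn blocks. In the LCWE model interleukin-1 signalling is known to be needed for the arterial inflammation. RNA levels report none of the cutting steps.

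Promoter windows from RefSeq on build GRCm38.p6 (250 bases before to 50 bases after the annotated start) were matched for 9 of the 10 genes, with 14 windows in all, and Gsdmd had none. The windows of Pycard and Casp4 are shown because these were the genes with the smallest p-values for LCWE over both genotypes. Capitals mark matches to the motifs searched, on either strand. Pycard lies on chromosome 7 on the minus strand, and its window is chr7:127993818-127994117. Casp4 lies on chromosome 9 on the plus strand, and the first of its windows is chr9:5308599-5308898.
Pycard: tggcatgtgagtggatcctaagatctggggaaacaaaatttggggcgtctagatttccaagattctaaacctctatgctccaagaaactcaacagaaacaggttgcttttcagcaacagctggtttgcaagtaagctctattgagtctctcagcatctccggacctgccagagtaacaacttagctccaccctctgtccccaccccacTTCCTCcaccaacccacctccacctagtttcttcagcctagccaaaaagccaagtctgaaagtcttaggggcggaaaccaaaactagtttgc
Casp4: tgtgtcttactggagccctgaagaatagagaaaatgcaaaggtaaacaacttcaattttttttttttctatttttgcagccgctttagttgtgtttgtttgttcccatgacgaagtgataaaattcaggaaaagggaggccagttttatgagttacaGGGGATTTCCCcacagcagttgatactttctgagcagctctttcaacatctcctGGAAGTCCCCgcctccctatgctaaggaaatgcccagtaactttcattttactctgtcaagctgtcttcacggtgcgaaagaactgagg

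The motifs were the PU.1 core GAGGAA, the consensus of the interferon-stimulated response element, the STAT element TTCNNNGAA and the NF-kB binding consensus. The Pycard window held 1 GAGGAA, read on the opposite strand at position -42 from the annotated start, and no match to the other motifs. The Casp4 window held the NF-kB consensus at 3 positions, of which 2 overlap in the first capital run. Windows of Il1r1 and Nlrp3 also held the NF-kB consensus, and windows of Aim2, Casp1 and Nlrp3 held GAGGAA, whereas those of Il1b, Il18 and Il1rn held none of these letters. Of 32851 mouse promoter windows of the same length, 28.3% held GAGGAA, 8.46% the NF-kB consensus, 8.30% TTCNNNGAA and 3.44% the interferon element. A match describes the letters of the window and not a bound site.

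Depth was close across the 19 libraries, at 11853233 to 16145911 counts each. Mcm8 itself lay at 0.130 to 0.749 CPM (a read count scaled by library size) in knockout LCWE libraries and at 2.60 to 5.19 CPM in wild-type LCWE libraries, with 0.617 to 0.910 CPM in knockout PBS and 2.84 to 4.54 CPM in wild-type PBS libraries. Every library therefore fell on the side its genotype label gives. The 10 cardiomyocyte markers summed to between 82998 and 122770 CPM per library, as fits heart tissue, and 6 liver markers ranged from 2.92 to 470.5 CPM in sum, with a wide spread inside the groups. The 4 Y-linked genes Ddx3y, Eif2s3y, Kdm5d and Uty summed to over 100 CPM in 3 of 5 knockout LCWE and 1 of 6 wild-type LCWE libraries, and in 1 of 3 knockout PBS and 0 of 5 wild-type PBS libraries, while the sum was at most 2.29 CPM in the others. Xist, an X-linked RNA gene, ran from 0.350 to 1.95 CPM in the libraries with high Y-linked sums. It ran from 171 to 250 CPM in the others, except in knockout LCWE replicate 2. That library had 0.649 CPM of Xist and 1.62 CPM of Y-linked genes, unlike either set. Macrophage markers did move with the groups. The sum of 16 of them ran at 499 to 1519 CPM in knockout LCWE libraries and 410 to 953 CPM in wild-type LCWE libraries, against 201 to 511 CPM in knockout PBS and 366 to 456 CPM in wild-type PBS libraries, with no marker at 0 in a whole group.

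The genes of the chain differed widely in level. Per kilobase of the annotated main transcript, averaged over all libraries, Gsdmd had the highest level at 10.6 CPM per kb. Pycard followed at 4.14, Il1r1 at 3.06, Casp4 at 2.38 and Casp1 at 1.59 CPM per kb. Aim2 (0.763), Il18 (0.576), Il1b (0.450), Nlrp3 (0.231) and Il1rn (0.0938 CPM per kb) were all below 1. The Pycard value rests on an annotated transcript of 3800 bases, and a shorter one would give a higher level per kb.

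**Figure D1:**
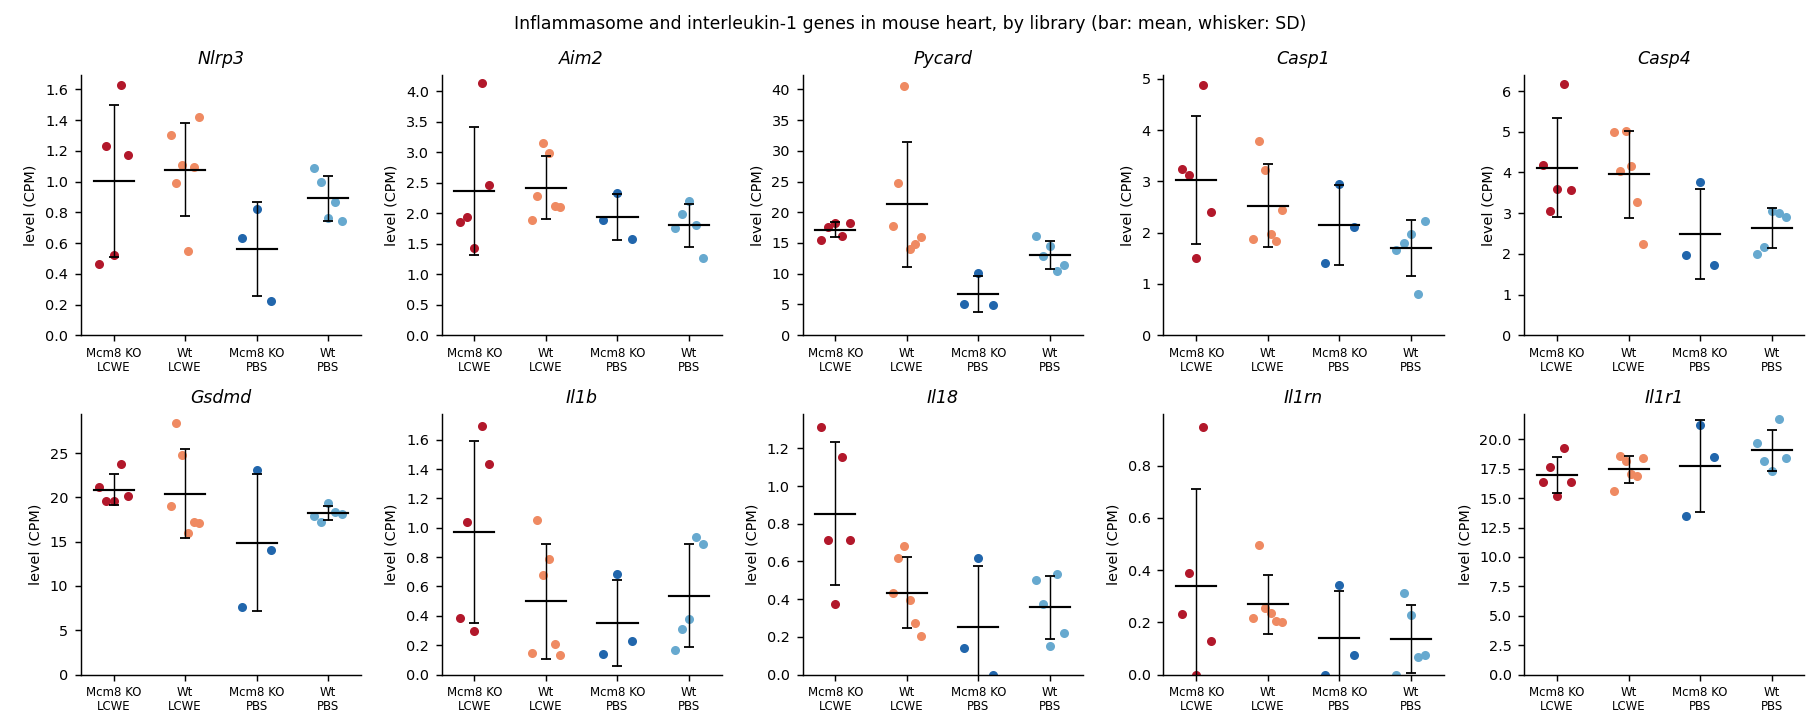
Level of each of the 10 genes in CPM (vertical axis, linear, from 0) in every library (points), with the mean (bar) and SD (whisker) of each of the 4 groups. Pycard is the gene whose 5 knockout LCWE libraries all lie above its 3 knockout PBS libraries, and for Il1b, Il18 and Il1rn the points of the groups mix.

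With LCWE, edgeR called 1 of the 9 genes tested, Pycard, which was 2.54-fold higher in knockout LCWE than in knockout PBS libraries. Over all genes 2.9% were called in that comparison, and the Pycard call was lost when any of 5 of the 19 libraries was left out. Averaged over both genotypes edgeR again called Pycard, where 2.95% of all genes were called. DESeq2 called Casp4 as well, and it called more of all genes there than edgeR did. The cytokine genes and the receptor gene Il1r1 did not pass in either comparison, which does not show that they stayed the same.

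Pycard encodes ASC, the adaptor that links a sensor to caspase-1. It lies at chr7:127989708-127993867 on the minus strand of GRCm38. In knockout LCWE libraries 1 to 5 it measured 15.5, 17.6, 18.2, 16.1 and 18.2 CPM, and in wild-type LCWE libraries its lowest, median and highest values were 13.99, 16.9 and 40.6 CPM. In knockout PBS libraries 1 to 3 it measured 5.04, 10.1 and 4.97 CPM, against 16.1, 12.8, 14.5, 10.5 and 11.4 CPM in wild-type PBS libraries 1 to 5. The knockout PBS libraries were thus the 3 lowest of all 19, the knockout LCWE libraries were tightly grouped, and 1 wild-type LCWE library (replicate 3) stood far above the rest. The group means were 17.1 ± 1.24 CPM in knockout LCWE (SD, n = 5) and 21.3 ± 10.2 CPM in wild-type LCWE libraries (n = 6), with 6.72 ± 2.97 CPM in knockout PBS (n = 3) and 13.1 ± 2.28 CPM in wild-type PBS libraries (n = 5). Of neighbours in the order of these means, the LCWE groups of the genotypes overlapped, knockout LCWE overlapped wild-type PBS, and knockout PBS lay wholly below wild-type PBS.

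Tested with edgeR's quasi-likelihood test and Benjamini-Hochberg adjustment over 14301 genes, Pycard was higher with LCWE in the knockout by 1.35 ± 0.32 on the log2 scale (standard error, adjusted p = 0.0349). There 1 of 9 members tested passed the threshold of 0.05, where 2.9% of all genes tested did. Its knockout groups did not overlap, with the LCWE libraries higher, which held for 1 of the 9 and for 4.91% of all genes. In wild type the fold was 0.70 ± 0.25 (adjusted p = 0.772), with overlapping groups, and without wild-type LCWE replicate 3 it was 0.41. None of the 9 members passed in wild type by edgeR, where 2 had an unadjusted p under 0.05, and DESeq2 and limma-voom also called none of them. Over all genes edgeR called 0% there (0 genes, against 892 with an unadjusted p under 0.05, and 1 by DESeq2), and 0.441% of genes, none of them a member, had all LCWE libraries above all PBS libraries.

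The common effect of LCWE over both genotypes on Pycard was 1.02 ± 0.20 (adjusted p = 0.0257). Again 1 of 9 members passed, where 2.95% of all genes did. The difference between the genotypes in their response to LCWE, tested as the interaction, was 0.64 ± 0.39 for Pycard (adjusted p = 0.685), so a larger response in the knockout was not shown. In that test edgeR called no member and 0% of all genes (1145 genes had an unadjusted p under 0.05, none of them a member, and DESeq2 called 5 genes). The comparisons of LCWE in the knockout, LCWE over both genotypes and the interaction share the knockout PBS libraries.

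**Figure D2:**
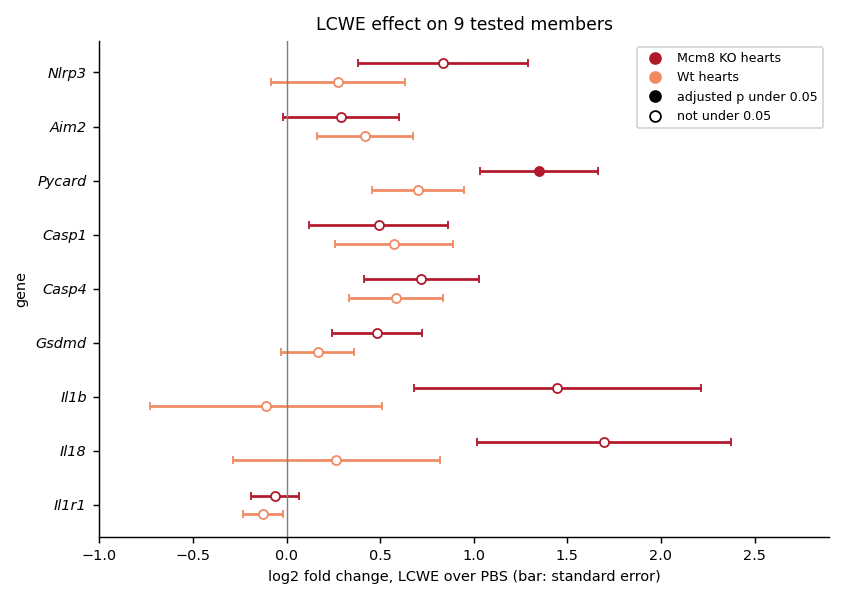
Log2 fold change for LCWE over PBS (horizontal axis, bar for the standard error) of the 9 genes tested, in Mcm8 knockout above and in wild type below for each gene. A filled point marks an adjusted p under 0.05, which Pycard in the knockout (1.35) alone reached, and 8 of 9 knockout folds and 7 of 9 wild-type folds lie above 0. The 8 include Il18, which was tested only through knockout LCWE, the group where it was high.

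The Pycard call in the knockout depended on which libraries entered. Without knockout PBS replicate 1 the fold was 1.18 (adjusted p = 0.275) and without replicate 3 it was 1.18 (adjusted p = 0.114). It was also lost without knockout LCWE replicate 1 (adjusted p = 0.0624), replicate 3 (0.0638) or replicate 5 (0.0692), and held without each of the other 14 libraries, with folds of 1.18 to 1.77 over all 19. With only the groups compared in the fit it was 1.34 (adjusted p = 0.206). The common effect was lost without knockout LCWE replicate 5 (adjusted p = 0.0524) and without knockout PBS replicate 1 (0.129) or 3 (0.0620).

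**Figure D3:**
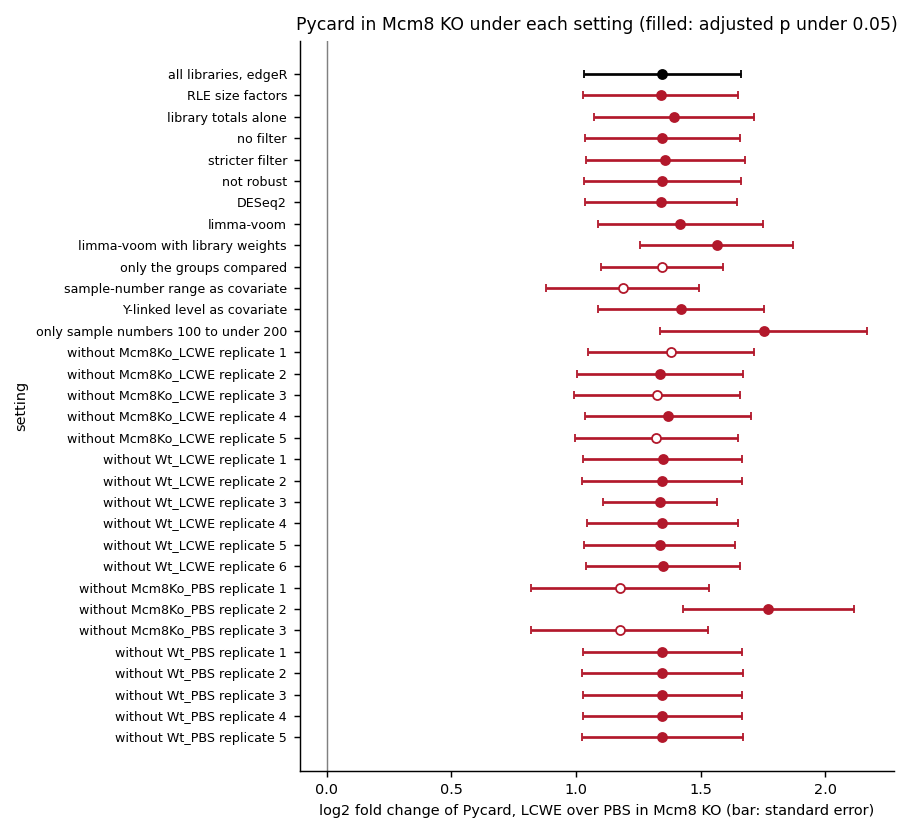
Log2 fold change of Pycard for LCWE over PBS in the Mcm8 knockout (horizontal axis, bar for the standard error) under each way of processing the counts and with each library left out in turn (rows). The values are above 0 under all 12 alternatives and without each of the 19 libraries, filled points have an adjusted p under 0.05, and the lowest are those without knockout PBS replicate 1 or 3 (1.18 each).

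The sample numbers in the labels fall into ranges that are spread unevenly over the groups, and what they stand for is not stated. With the range as a covariate the knockout fold of Pycard was 1.19 (adjusted p = 0.0597) and the common fold 0.95 (adjusted p = 0.0473). Among the libraries numbered from 100 to under 200 Pycard was 1.75 higher in the knockout (3 LCWE libraries against 1 PBS library) and 1.0 higher in wild type (3 against 4). Far more of all genes passed in that subset than with all libraries, so Pycard is not set apart there. Its wild-type levels in the subset were 17.7 to 40.6 CPM with LCWE and 10.5 to 16.1 CPM with PBS, without overlap. The share of all genes without overlap in this subset was not computed. The lone PBS library of the knockout in that range is assumed to vary like the other groups. Knockout PBS replicate 1, with 5.04 CPM of Pycard, was the PBS library with high Y-linked levels. With the Y-linked level as a covariate the Pycard fold was 1.42 ± 0.33 in the knockout (adjusted p = 0.0281) and 1.08 ± 0.21 over both genotypes (adjusted p = 0.0184). Among numbers under 100 the knockout had 2 LCWE libraries (16.1 and 18.2 CPM) and 1 PBS library (10.1 CPM), and wild type had no PBS library.

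Macrophage markers went in the direction of Pycard for LCWE, and mostly so between the genotypes under PBS. For knockout against wild type under LCWE 16 of 16 had folds above 0 (median 0.38, 0 called), where Pycard was at -0.31. That Pycard fold was -0.028 without wild-type LCWE replicate 3 and 0.021 with voom library weights, so its sign is not settled. Under PBS 2 of 16 markers had folds above 0 (median -0.35, 0 called), where Pycard was at -0.95. The folds for LCWE were as follows. In the knockout 16 of 16 had folds above 0 with LCWE (median 1.45, 5 called), and in wild type 16 of 16 as well (median 0.71, 0 called by edgeR or DESeq2, 9 with an unadjusted p under 0.05). Knockout PBS replicates 1 and 3, with the lowest Pycard, had the lowest macrophage sums of all libraries (223 and 201 CPM), while replicate 2 had 511 CPM. Per 100 CPM of macrophage markers, Pycard came to 1.06 to 3.52 CPM in knockout LCWE libraries and 2.37 to 4.26 CPM in wild-type LCWE libraries, against 1.99 to 2.47 CPM in knockout PBS and 2.35 to 3.54 CPM in wild-type PBS libraries. On that scale LCWE and PBS libraries overlapped in both genotypes. The part of macrophage content in the Pycard result was not tested beyond this ratio, and in whole tissue more cells of a type and more RNA per cell cannot be told apart.

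**Figure D4:**
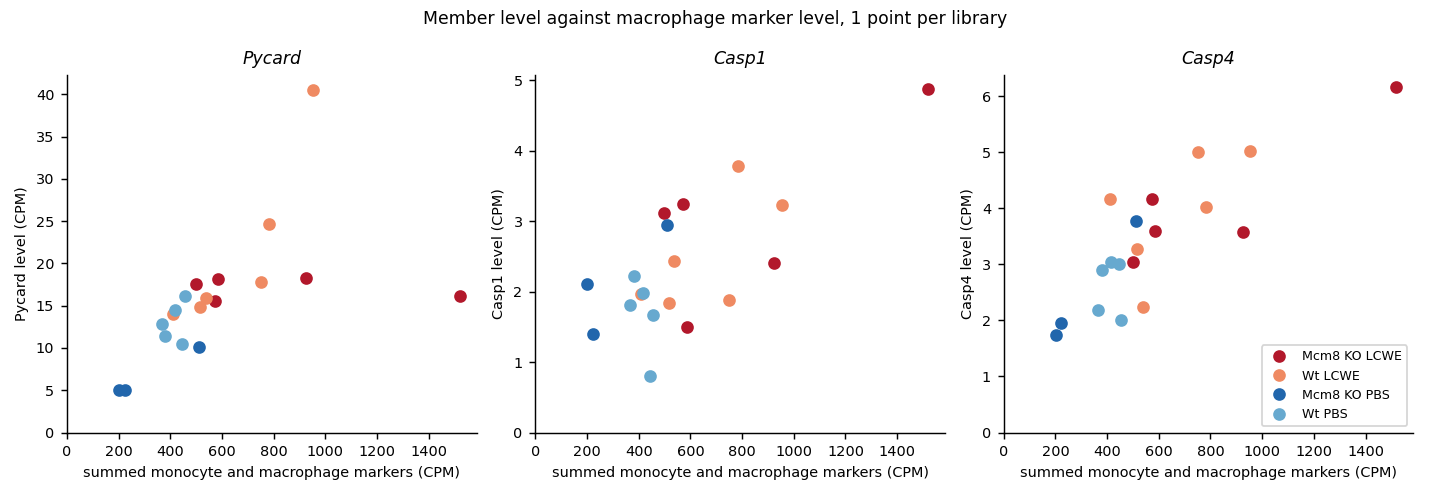
Level of Pycard, Casp1 and Casp4 in CPM (vertical axes) against the summed level of 16 monocyte and macrophage markers in CPM (horizontal axes), 1 point per library, coloured by group. Knockout PBS replicates 1 and 3 are the lowest on the marker axis, and lowest of all for Pycard and Casp4 but not for Casp1, and knockout LCWE replicate 4, at 1519 CPM of markers, is highest for Casp1 and Casp4 but has 16.1 CPM of Pycard.

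Genotype was compared directly as well. Under PBS, Pycard lay below wild type in all 3 knockout libraries (4.97 to 10.1 CPM in knockout PBS, against 10.5 to 16.1 CPM in wild-type PBS), by -0.95 ± 0.31 on the log2 scale (adjusted p = 0.112). No member passed there by edgeR, where 0.601% of all genes did. An unadjusted p under 0.05 was met by 1 of 9 members and by 2817 of 14301 genes. DESeq2 called Pycard (-0.95, adjusted p = 0.0396), as did edgeR without knockout PBS replicate 2 (-1.38, adjusted p = 0.0102). By edgeR the number of all genes called in this comparison ran from 0 to 2606 with 1 library left out. All 3 knockout libraries lay below all 5 wild-type libraries for 1 of 9 members and for 3.62% of all genes. Under LCWE the knockout differed from wild type by -0.31 ± 0.24 in Pycard (adjusted p = 0.934). By edgeR no member passed there, none had an unadjusted p under 0.05, DESeq2 called no member either, and 0.00699% of all genes passed. The common effect of the knockout on Pycard was -0.63 ± 0.20 (adjusted p = 0.106), again with no member called by edgeR, beside 0.014% of all genes. An unadjusted p under 0.05 was met there by 1 of 9 members and by 2956 of 14301 genes. DESeq2 called 1 member there (Pycard, adjusted p = 0.0368). Without knockout PBS replicate 2 the common effect on Pycard was -0.84 and passed by edgeR (adjusted p = 0.0103). All genes called for that effect ran from 1 to 2397 with 1 library left out.

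Counts of Pycard may hold reads of a neighbour. The first exon of Pycard is covered over 485 bases by the opposite-strand gene Gm45205, which has no row of its own in the table, and whether strand was used in counting is not given in the sources used here. By Pearson correlation of log2 CPM over the 19 libraries, the genes most like Pycard were Taldo1 (0.94) and Ldha (0.94), which encode enzymes of the pentose phosphate pathway and of lactate formation, followed by Elp6 (0.93) and Dhrs7c (0.92). With the group means taken out, the correlations were 0.88 for Taldo1, 0.87 for Ldha, 0.77 for Elp6 and 0.94 for Dhrs7c. Wild-type LCWE replicate 3, the highest library for Pycard, was also the highest for each of these genes. The libraries share their composition, and the correlations describe likeness only.

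Upstream of the adaptor, neither sensor passed. Nlrp3, the sensor of membrane damage and ion loss, measured 0.464, 1.23, 0.524, 1.63 and 1.17 CPM in knockout LCWE libraries 1 to 5, and 0.550, 1.10 and 1.42 CPM as lowest, median and highest in wild-type LCWE libraries. In knockout PBS libraries it measured 0.630, 0.823 and 0.226 CPM, against 0.742 to 1.09 CPM in wild-type PBS libraries. The groups overlapped throughout, and the lowest library of all 19 was knockout PBS replicate 3, which held 3 counts. The LCWE folds were 0.83 ± 0.45 in the knockout (adjusted p = 0.273) and 0.28 ± 0.36 in wild type (adjusted p = 0.935). Under PBS the knockout differed from wild type by -0.65 ± 0.46 (adjusted p = 0.434).

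Aim2, the sensor of DNA in the cytosol, averaged 2.37 ± 1.06 CPM in knockout LCWE libraries (SD, n = 5) and 2.42 ± 0.520 CPM in wild-type LCWE libraries (n = 6), with 1.93 ± 0.377 CPM in knockout PBS (n = 3) and 1.80 ± 0.351 CPM in wild-type PBS libraries (n = 5). Its highest value, 4.13 CPM, came from knockout LCWE replicate 4, and the other 4 libraries of that group lay between 1.42 and 2.47 CPM, within reach of PBS. The LCWE folds were 0.29 ± 0.31 in the knockout (adjusted p = 0.597, and -0.0061 without replicate 4) and 0.42 ± 0.26 in wild type (adjusted p = 0.816).

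Downstream, Casp4 came nearest to Pycard. Casp4 encodes caspase-11, the lipopolysaccharide-sensing caspase, and lies at chr9:5308828-5336783, next to Casp1 at chr9:5298517-5307265, its relative in sequence. Casp4 measured 4.17, 3.05, 3.60, 6.17 and 3.58 CPM in knockout LCWE libraries 1 to 5, and 2.23, 4.10 and 5.02 CPM as lowest, median and highest in wild-type LCWE libraries. It measured 1.96, 3.77 and 1.73 CPM in knockout PBS libraries, against 2.004, 2.18, 3.04, 3.003 and 2.895 CPM in wild-type PBS libraries. In the knockout only PBS replicate 2 reached into the LCWE range, and in wild type the LCWE libraries overlapped PBS through replicate 6, the lowest. The common LCWE effect on Casp4 was 0.65 ± 0.20 by edgeR (adjusted p = 0.0665), and DESeq2 called it (0.65, adjusted p = 0.0310), as did edgeR without wild-type LCWE replicate 6 (0.71, adjusted p = 0.0412) or knockout PBS replicate 2 (0.86, adjusted p = 0.00760). For that common effect all genes called by edgeR ran from 0 to 2847 with 1 library left out, and DESeq2 called more genes than edgeR with all libraries. The folds within genotype were alike, 0.72 ± 0.31 in the knockout (adjusted p = 0.167) and 0.59 ± 0.25 in wild type (adjusted p = 0.772). Within the sample numbers from 100 to under 200 the wild-type fold was 0.84. Without knockout PBS replicate 2 the knockout fold was 1.15 (adjusted p = 0.0213). All genes called for LCWE in the knockout ran from 1 to 2935 with 1 library left out.

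Casp1 encodes the caspase that cuts the interleukin precursors. It averaged 3.03 ± 1.25 CPM in knockout LCWE libraries (SD, n = 5) and 2.52 ± 0.808 CPM in wild-type LCWE libraries (n = 6), with 2.15 ± 0.775 CPM in knockout PBS (n = 3) and 1.70 ± 0.542 CPM in wild-type PBS libraries (n = 5). Its groups overlapped, with 1.499 to 4.88 CPM in knockout LCWE and 1.40 to 2.95 CPM in knockout PBS libraries. The LCWE folds, 0.49 ± 0.37 in the knockout (adjusted p = 0.443) and 0.57 ± 0.31 in wild type (adjusted p = 0.794), were of like size and passed in neither genotype.

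Gsdmd, the gene of the pore protein, measured 21.2, 19.5, 19.6, 23.7 and 20.2 CPM in knockout LCWE libraries 1 to 5, and 16.0, 18.1 and 28.4 CPM as lowest, median and highest in wild-type LCWE libraries. It measured 7.63, 23.0 and 14.01 CPM in knockout PBS libraries, against 17.9, 17.3, 19.4, 18.3 and 18.1 CPM in wild-type PBS libraries. Knockout PBS thus held the lowest library and 1 of the higher ones, and its SD of 7.74 CPM was the widest of the 4 groups, beside 1.73 CPM in knockout LCWE, 5.02 CPM in wild-type LCWE and 0.781 CPM in wild-type PBS libraries. The LCWE folds were 0.48 ± 0.24 in the knockout (adjusted p = 0.227) and 0.17 ± 0.20 in wild type (adjusted p = 0.922), and the knockout differed from wild type under PBS by -0.29 ± 0.24 (adjusted p = 0.518). Without knockout PBS replicate 2, the library with the high value, the knockout LCWE fold was 0.95 and passed (adjusted p = 0.00717), and so did the genotype difference under PBS (-0.75, adjusted p = 0.0257). Without knockout PBS replicate 1, the lowest, that difference was 0.026. All genes called also moved with single libraries left out, from 1 to 2935 for LCWE in the knockout and from 0 to 2606 for genotype under PBS.

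The cytokine genes rested on few reads. Il1b, which encodes the precursor of interleukin-1β, had 5, 16, 4, 25 and 22 counts in knockout LCWE libraries 1 to 5, or 0.386, 1.04, 0.300, 1.69 and 1.43 CPM. In wild-type LCWE libraries its lowest, median and highest levels were 0.135, 0.443 and 1.05 CPM. It measured 0.140, 0.686 and 0.226 CPM in knockout PBS libraries, against 0.167, 0.311, 0.380, 0.934 and 0.891 CPM in wild-type PBS libraries. In the knockout 3 of 5 LCWE libraries lay above every PBS library, and wild type showed no such order, as 2 of its PBS libraries exceeded 5 of its 6 LCWE libraries. The LCWE folds were 1.45 ± 0.77 in the knockout (adjusted p = 0.261) and -0.11 ± 0.62 in wild type (adjusted p = 0.985), the wild-type value running from -0.50 to 0.19 as single libraries were left out. Their difference, 1.56 ± 0.99, did not pass (adjusted p = 0.702), and neither did knockout against wild type under LCWE (0.96 ± 0.59, adjusted p = 0.901). Il1b shares 25 bases of exon with the antisense gene Il1bos, which averaged 0.474 counts per library.

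Il18, which encodes the precursor of interleukin-18, passed the filter on low counts only through the knockout LCWE group. In that group 4 of 5 libraries exceeded 0.697 CPM, the level that the filter asks for, and no library of another group did, so its being tested already required a difference. It had 17, 11, 5, 17 and 11 counts (1.31, 0.714, 0.375, 1.15 and 0.716 CPM) in knockout LCWE libraries and 0.203, 0.414 and 0.680 CPM as lowest, median and highest in wild-type LCWE libraries. In knockout PBS libraries it had 2, 9 and 0 counts (0.140, 0.617 and 0 CPM), against 0.501, 0.374, 0.152, 0.534 and 0.223 CPM in wild-type PBS libraries. Knockout PBS replicate 2 overlapped the LCWE range of the knockout through its lowest library, replicate 3. The LCWE folds were 1.70 ± 0.68 in the knockout (adjusted p = 0.141) and 0.27 ± 0.55 in wild type (adjusted p = 0.960), and the interaction was 1.43 ± 0.88 (adjusted p = 0.688). Without knockout PBS replicate 2 the knockout fold was 3.41 (adjusted p = 0.00983), with 2 and 0 counts left in the PBS group. Since its place among the genes tested came from the group where it was high, no call of Il18 is read as a result. Under LCWE the knockout exceeded wild type by 0.97 ± 0.51, which did not pass (adjusted p = 0.899).

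On the receiving side, the antagonist and the receptor differed in abundance by far. Il1rn, the gene of the interleukin-1 receptor antagonist, had 3, 6, 0, 14 and 2 counts in knockout LCWE libraries 1 to 5 and 3 to 8 counts in wild-type LCWE libraries. It had 0, 5 and 1 counts in knockout PBS libraries, and 0, 5, 3, 1 and 1 counts in wild-type PBS libraries. Only knockout LCWE replicate 4 stood clear of the rest, at 0.949 CPM, and at this depth no difference between groups was detectable.

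Il1r1, the signalling receptor for interleukin-1, averaged 16.98 ± 1.53 CPM in knockout LCWE libraries (SD, n = 5) and 17.4 ± 1.16 CPM in wild-type LCWE libraries (n = 6), with 17.7 ± 3.90 CPM in knockout PBS (n = 3) and 19.1 ± 1.73 CPM in wild-type PBS libraries (n = 5). The ranges of all 4 groups overlapped, with 13.5 CPM as the lowest value and 21.8 CPM as the highest. The LCWE folds were -0.06 ± 0.13 in the knockout (adjusted p = 0.807) and -0.13 ± 0.11 in wild type (adjusted p = 0.884), and its standard errors were the smallest of the 9 genes tested. Under PBS the knockout differed from wild type by -0.10 ± 0.13 (adjusted p = 0.692), with 13.5 to 21.2 CPM in knockout PBS and 17.3 to 21.8 CPM in wild-type PBS libraries. Among sample numbers from 100 to under 200, where the knockout had the single PBS library at 13.5 CPM, that difference was -0.52 and rested on that library. Over all ranges, without this library (knockout PBS replicate 1), it was 0.058.

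Taken as a list, the members tested lay mostly above 0 with LCWE. In the knockout 8 of 9 folds were above 0 with a median of 0.72, in wild type 7 of 9 with a median of 0.28, and over both genotypes 8 of 9 with a median of 0.55, while the medians of all 14301 genes were 0.01 in each. The 9 include Il18, which passed the filter only through knockout LCWE. Its folds above 0 in the knockout and over both genotypes were favoured by that filter. Knockout against wild type under LCWE gave 5 of 9 above 0 with a median of 0.03, and under PBS 2 of 9 with a median of -0.29. Individual libraries accounted for much of the spread. Knockout LCWE replicate 4 was the highest of all 19 libraries for 6 of the 10 genes (Nlrp3, Aim2, Casp1, Casp4, Il1b and Il1rn) and also had the highest macrophage and neutrophil marker sums (1519 and 114 CPM). Knockout PBS replicate 1 was among the 2 lowest libraries for 7 of the 10 genes and replicate 3 for 5 of them, whereas replicate 2 was so for none.

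Other genes of the pathway were read from lists chosen by name. Of 11 tested among 17 other inflammasome sensors none was called in any comparison by edgeR. With LCWE in the knockout 2 of the 11 had an unadjusted p under 0.05, beside 3347 of all 14301 genes. For knockout against wild type under LCWE 3 of the 11 did, beside 794 of all genes. DESeq2 called 0 of the 11 in each. Ifi204, an interferon-inducible DNA-binding protein gene, and Zbp1, a sensor of Z-form nucleic acid, had the smallest p-values of that list. In knockout LCWE libraries against wild-type LCWE libraries Ifi204 was 1.38 ± 0.38 (adjusted p = 0.737) and Zbp1 2.04 ± 0.61 (adjusted p = 0.800) on the log2 scale, and in both genes 3 of 5 knockout libraries stood above every wild-type library while the other 2 did not.

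Of 22 tested genes for NLRP3 activation, caspases and pore formation, 1 rose with LCWE in the knockout and 0 fell. This was Fadd, the gene of an adaptor that recruits caspase-8, at 0.61 ± 0.14 (adjusted p = 0.0322), and 2.9% of all genes were called there. In wild type its fold was 0.06 ± 0.11 (adjusted p = 0.957), and over both genotypes it was called at 0.34 ± 0.09 (adjusted p = 0.0457). The difference between the genotypes' folds did not pass (adjusted p = 0.527). Fadd lay at 23.6 to 34.2 CPM in knockout LCWE and 20.6 to 29.2 CPM in wild-type LCWE libraries, against 15.3 to 19.5 CPM in knockout PBS and 22.0 to 27.9 CPM in wild-type PBS libraries. The knockout PBS libraries all lay below the wild-type PBS libraries, which held for 3.62% of all genes, and differed from them by -0.50 ± 0.14 (adjusted p = 0.0748). They also lay below all knockout LCWE libraries, which held for 4.91% of all genes. Fadd is named for a call that uses these same knockout PBS libraries. The median fold of that list in the knockout was 0.09, beside 0.01 for all genes.

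Of 7 tested IL-1 family ligands, receptors and decoys, 1 was called, Il18rap, for LCWE over both genotypes, where 2.95% of all genes were. It encodes the accessory chain of the interleukin-18 receptor, and its LCWE fold was 1.79 ± 0.47 (adjusted p = 0.0457). It lay at 0.260 to 3.25 CPM in knockout LCWE and 0.342 to 1.79 CPM in wild-type LCWE libraries. PBS levels were 0.226 to 0.343 CPM in the knockout and 0.0760 to 0.742 CPM in wild type. The filter asks for 0.697 CPM, which no knockout PBS library reached. Il18rap thus entered the test mainly through the LCWE groups, where it was high. Its call is therefore not read as a result. T and NK cell markers, which mark cells that carry this receptor, also had folds above 0 in 8 of 8 tested (median 1.72) over both genotypes, with 1 called. So did neutrophil markers in 8 of 8 (median 2.55, 3 called) and macrophage markers in 16 of 16 (median 1.10, 11 called). The filter kept 8 of 10 T and NK cell markers and 8 of 12 neutrophil markers. In wild-type PBS libraries these whole lists averaged 3.48 and 6.05 CPM in sum. Some of their markers may thus have been tested through the LCWE groups, which favours folds above 0, so these counts are not read as a result. The part of any of these cell types in the Il18rap levels was not tested.

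Of 19 genes of IL-1 receptor signalling, Tab1, a partner of the kinase TAK1, rose with LCWE in the knockout (0.77 ± 0.17, adjusted p = 0.0322). In wild type its fold was 0.09 ± 0.14 (adjusted p = 0.943), and over both genotypes it was called at 0.43 ± 0.11 (adjusted p = 0.0419). The difference between the genotypes' folds did not pass (adjusted p = 0.543). Tab1 averaged 55.6 ± 8.43 CPM in knockout LCWE (SD, n = 5) and 55.0 ± 6.66 CPM in wild-type LCWE libraries (n = 6), with 32.6 ± 9.04 CPM in knockout PBS (n = 3) and 51.5 ± 7.71 CPM in wild-type PBS libraries (n = 5). Its knockout PBS libraries differed from wild-type PBS by -0.66 ± 0.17 (adjusted p = 0.0651). Nfkbia, the gene of the NF-kB inhibitor that NF-kB itself switches on, fell over both genotypes by 0.51 ± 0.13 (adjusted p = 0.0457). So 1 of the 19 was called higher and 1 lower over both genotypes, where 2.95% of all genes were called, and 5 of 19 folds were above 0, with a median of -0.08 beside 0.01 for all genes. Knockout PBS replicate 1 had 158 CPM of Nfkbia, more than any other library, and without it the fold was -0.26 (adjusted p = 0.188). Fadd and Tab1 in the knockout were each lost on leaving out any of 5 of 19 libraries, and over both genotypes Fadd, Tab1 and Nfkbia were each lost on leaving out any of 15 and Il18rap any of 14. Over both genotypes limma-voom without library weights called 0 genes in the lists that hold these genes. With library weights it called 0 in the list of Il18rap.

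**Figure D5:**
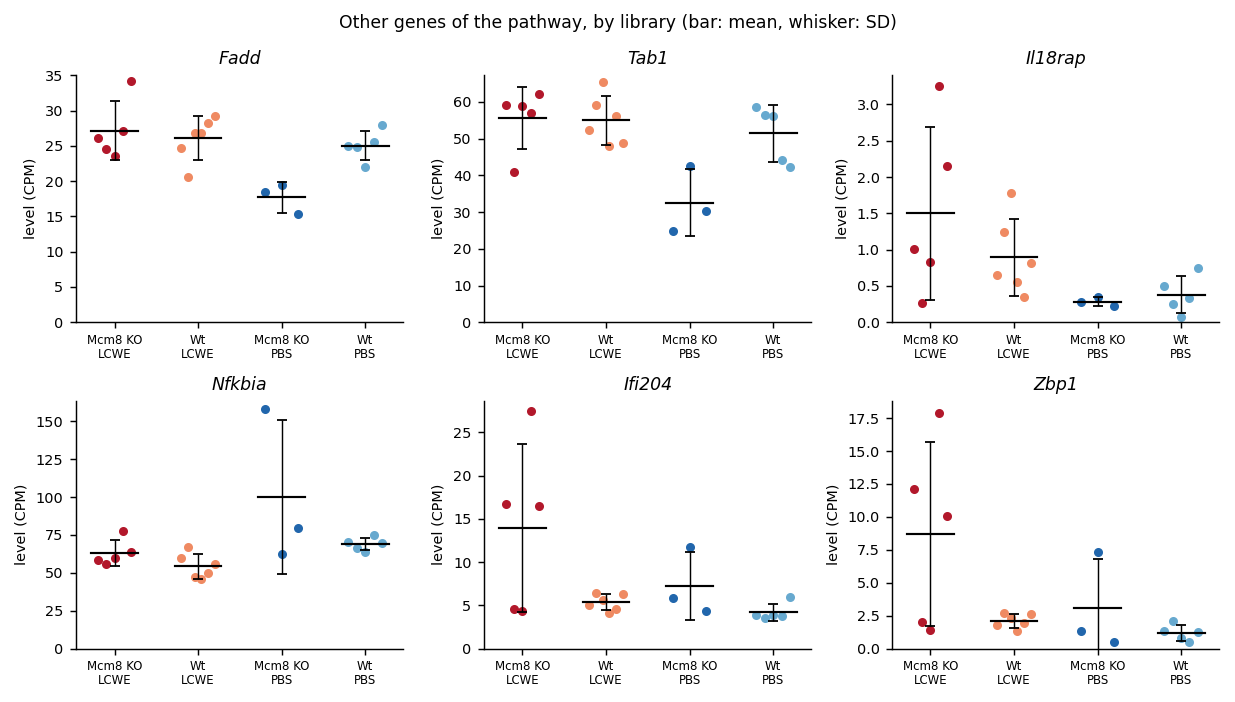
Level in CPM (vertical axes, linear, from 0) of the 6 pathway genes named by the rule, in every library (points) with the mean (bar) and SD (whisker) of each group. Fadd and Tab1 are lowest in knockout PBS, Nfkbia has 1 knockout PBS library at 158 CPM, and Ifi204 and Zbp1 have 3 high knockout LCWE libraries.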

How the data were processed

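The data are 19 RNA sequencing libraries of mouse heart, grouped by the genotype and treatment in the labels. Replicate numbers follow accession order and pair no libraries. The labels' protocols describe preamplification of the reverse-transcribed RNA with a whole-transcriptome kit. The authors deposited 1 table of whole-number counts per gene symbol, without normalization. The submitters' processing notes name STAR 2.7.8a, limma and the genome build GRCm38, but not their roles. How reads were counted, with which annotation and with what strand setting, is not given in the sources used here. Columns matched libraries by label, with 0 columns of other samples.

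From the deposited counts, edgeR 4.0.16 (R 4.3.3) kept 14301 genes with filterByExpr, at a minimum count of 10 and a minimum total of 15. After TMM scaling, 1 robust edgeR quasi-likelihood model held all 4 groups and no covariates. Benjamini-Hochberg adjustment ran over those genes, and a gene is called where its adjusted p is under 0.05. Levels are CPM computed here from the counts with TMM factors, and log2 CPM used a prior count of 2. Coordinates and transcript lengths are from GENCODE M21 on GRCm38 (10 of 10 members matched), and promoter sequences from RefSeq. Replicates were compared by chi-square over 14493 genes, and no pair looked like 1 library deposited again (lowest value per gene 7.28 within a group and 6.82 between groups). The procedure was tested on simulated counts.

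The members and lists were chosen with earlier results of these data known. The genes named are all members, the pathway genes called in a comparison or, for a list with none, the 2 with the smallest p, and the 4 genes most correlated with a called member. Alternatives covered normalization (RLE size factors, library totals alone), filtering (none, or 5 CPM in 3 libraries), the test (a non-robust fit, DESeq2 1.42.0, and limma-voom from limma 3.58.1 with and without library weights), the libraries (only the groups compared, only sample numbers from 100 to under 200, each left out in turn) and covariates (sample-number range, Y-linked level).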

Additional observations from a re-analysis of the deposited data

Results flagged for a closer look

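The 10 genes were screened in the 3 groups of 4 to 10 libraries for a single library set apart from its nearest neighbour. The gap, as a part of the range of its group, had to exceed a cutoff that chance meets about 1 time in 20. Of 30 such checks 1 was met. Wide gaps under that cutoff, such as that of Pycard in wild-type LCWE replicate 3 (40.6 CPM), were not flagged. The library flagged was wild-type LCWE replicate 2 for Il1rn, at 0.495 CPM, against 0.203 to 0.255 CPM in the other libraries of that group. That value rests on 8 counts, and the others rest on 3 counts each.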

How the results depend on the processing

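Levels in CPM moved by less than the spread between replicates in 40 of 40 cases when scaled by library totals alone. Of the folds and counts under the other settings 499 of 555 kept direction and side of the threshold, as did 852 of 950 with 1 library left out. The causes of the changes below were not tested.

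The number of members called for LCWE in the knockout (1) was 0 with only the groups compared or with the sample-number range as covariate, 2 with voom library weights or only numbers from 100 to under 200, and 0 to 4 with 1 library left out. The 4 appeared without knockout PBS replicate 2 (Pycard, Casp4, Gsdmd and Il18). Such numbers of members are not read as results about the members, since all genes called there also varied, from 1 to 2935 with 1 library left out. Il18 entered the test only through the group where it was high, so its call, which is also among those with library weights, carries no weight. For LCWE in wild type (0) it was 2 with only numbers from 100 to under 200. For knockout under PBS (0) it was 1 with DESeq2 or library weights, 3 with only those numbers and 0 to 2 with 1 library left out. For the interaction (0) it was 1 with only those numbers. For the common LCWE effect (1) it was 2 with DESeq2, 3 with library weights or only those numbers and 0 to 4 with 1 library left out. For the common knockout effect (0) it was 1 with DESeq2, 2 with only those numbers and 0 to 1 with 1 library left out.

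Signs turned for small folds. With only numbers from 100 to under 200 the fold for LCWE was -0.12 for Aim2 and 0.27 for Il1r1 in the knockout, 0.43 for Il1b in wild type and 0.050 for Il1r1 over both genotypes, -0.052 for Fadd in wild type, and Il1b in knockout against wild type under LCWE was -0.10. Fadd for LCWE in wild type was also -0.0025 by library totals and -0.032 with the range covariate. With the Y-linked level as covariate the LCWE fold was 0.037 for Il1r1 in the knockout and 0.064 for Il1b in wild type. With voom library weights Gsdmd for LCWE in wild type was -0.0042 and Pycard in knockout against wild type under LCWE 0.021. With 1 library left out the LCWE fold ran from -0.0061 to 0.45 for Aim2 and from -0.23 to 0.083 for Il1r1 in the knockout, and from -0.50 to 0.19 for Il1b in wild type, and knockout against wild type under PBS from -0.75 to 0.026 for Gsdmd and from -0.25 to 0.058 for Il1r1.

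The number of all genes called varied more, and the numbers of members called are to be read beside it. With 1 library left out it ran from 0 to 2606 for knockout under PBS and from 0 to 2847 for the common LCWE effect. For the common knockout effect it then ran from 1 to 2397. For LCWE in the knockout (415) it was 0 with only the groups compared, 113 with limma-voom, 116 with the range covariate, 229 by library totals, 830 with the Y-linked level, 1260 with DESeq2, 1415 with library weights, 4001 with only numbers from 100 to under 200 and 1 to 2935 with 1 library left out. For knockout under PBS (86) it ran from 0 (Y-linked level) to 3985 (only those numbers), with 693 by DESeq2, and for the common LCWE effect (422) from 51 (range covariate) to 4527 (only those numbers), with 1336 by DESeq2. With only those numbers it was 1221 for LCWE in wild type (0), 2230 for the interaction (0) and 3349 for the common knockout effect (2).

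No paired analysis was possible because the sample numbers in the labels all differ and the replicate numbers only follow accession order. Depth limits Il1rn, Il1b, Il18 and Nlrp3, which rested on 0 to 25 counts per library. It also limits the pathway gene Il18rap, with 1 to 48 counts per library.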
